A study of Mus musculus with 3 samples.

Results

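The 10 genes described here encode the fragile X family of RNA-binding proteins (Fmr1, Fxr1, Fxr2), their cytoplasmic partners (Cyfip1, Cyfip2, Caprin1) and the cytoplasmic polyadenylation element-binding proteins (Cpeb1, Cpeb2, Cpeb3, Cpeb4). They were taken by gene symbol, by a rule that sets no threshold on measured values, as 10 of 33101 gene names with a value in the deposited table. Messenger RNA had been sequenced from dentate gyri, dissected on both sides of the brain, of male C57Black6 mice aged 8 to 10 weeks. All 3 libraries were wild type and formed 1 group, with no treatment and no second genotype, so every comparison below is between genes within this tissue. The table holds 1 value per gene for the group, in FPKM, a fragment count divided by transcript length and by library size, which allows levels to be compared between genes per length. It gives no replicate error and no read depth. No standard deviation, interval or test against replicate spread can therefore be attached to any value, and whether close levels differ cannot be judged.

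FMRP, the product of Fmr1, binds mRNAs in dendrites and on polyribosomes and holds back their translation, and its loss causes fragile X syndrome in humans. CYFIP proteins link FMRP both to the cap-binding factor eIF4E, which they can sequester, and to the WAVE regulatory complex that drives branched actin assembly. CPEB proteins bind U-rich elements in the 3′ ends of mRNAs and switch them between a short, silent poly(A) tail and a long, translated one, a form of control that hippocampal neurons use at synapses.

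The tissue carried markers of granule cells, with Prox1, the transcription factor that specifies them, at 44.8 FPKM and C1ql2 at 111 FPKM. The other preset markers of these cells were Calb1 at 77.4 FPKM and Dock10 at 0.137 FPKM. Astrocyte markers were also high, from 37.9 FPKM for Aqp4 to 511 FPKM for Aldoc, and the interneuron markers Sst, Gad1 and Gad2 were at 109, 87.1 and 10.6 FPKM. Of the choroid plexus markers, Kl was at 6.06 FPKM, Ttr at 2.13 FPKM and Folr1 was listed at 0. Of the endothelial markers, Cldn5 was at 7.96 FPKM, Flt1 at 2.02 FPKM and Pecam1 was listed at 0. In a dissected tissue, fewer cells of a type and less RNA per cell cannot be told apart, and which cells carried the 10 genes was not tested.

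All 10 genes were transcribed at 1 FPKM or more, a level reached by 56.4% of 20113 protein-coding names. At 10 FPKM or more stood 8 of the 10, against 30.8% of protein-coding names. Their median was 24.2 FPKM, beside 2.46 FPKM for all protein-coding names and 11.5 FPKM for those at 1 FPKM or more. The levels spanned 54.5-fold, from 136 FPKM for Cyfip2 to 2.50 FPKM for Fxr2. In descending order the genes were Cyfip2, Caprin1, Cpeb1, Cpeb4, Cyfip1, Fxr1, Fmr1, Cpeb3, Cpeb2 and Fxr2. The 10 were named as known regulators of neuronal translation, so this order describes them and does not set them apart from other RNA-binding proteins.

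**Figure D1:**
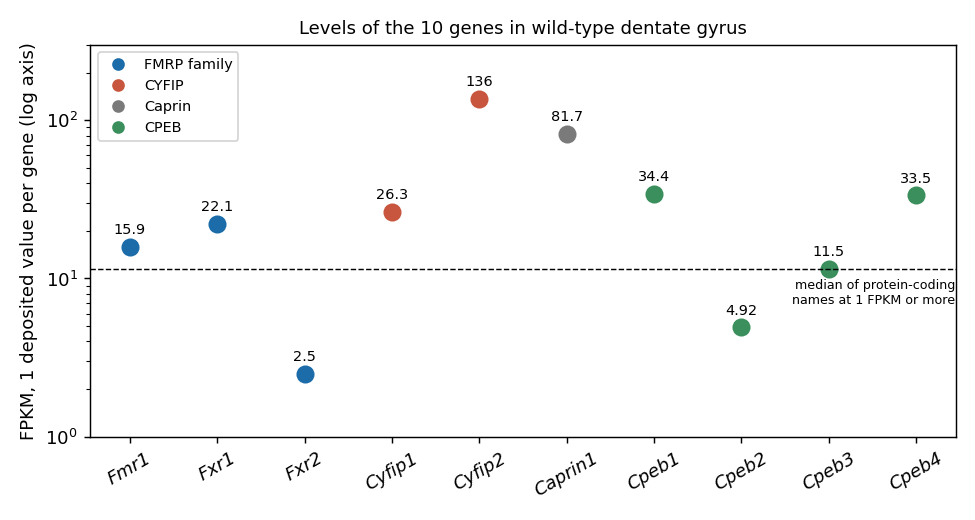
FPKM of each gene on a log axis, 1 deposited value per gene with no error available, coloured by family; the dashed line is the median of protein-coding names at 1 FPKM or more (11.5 FPKM). Cyfip2 at 136 FPKM and Caprin1 at 81.7 FPKM lie highest, and Cpeb2 at 4.92 FPKM and Fxr2 at 2.50 FPKM lie below the line, with Cpeb3 at 11.5 FPKM just under it.

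Within the fragile X family, Fmr1 stood at 15.9 FPKM, higher than 77.7% of protein-coding names. In the mm9 coordinates of the table its listed transcript spans 65931716 to 65971138 on the plus strand of chromosome X. Fxr1, an autosomal relative with the same kinds of RNA-binding domain and a known role in muscle, was at 22.1 FPKM, higher than 83.1% of names. It lies at 33919001 to 33968264 on the plus strand of chromosome 3. Fxr2, the third relative, was at 2.50 FPKM, close to the middle of all protein-coding names, at a percentile of 50.2. It lies at 69446492 to 69466799 on the plus strand of chromosome 11.

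The ratio of Fmr1 to Fxr1 was 0.72. Both were several-fold above Fxr2, Fmr1 by 6.37-fold and Fxr1 by 8.85-fold. Of the summed 40.5 FPKM of the family, Fmr1 held 39.3%, Fxr1 54.6% and Fxr2 6.17%. The paralogs could be told apart by sequence: over their GENCODE M21 transcripts, the longest identical run was 16 nt between Fmr1 and Fxr1, and 20 nt between Fxr2 and either of the others. For Fxr1 there is a further source of shared reads, since a processed pseudogene, Gm17795, aligned to it over 761 nt at 93.4% identity. No value for that pseudogene was analysed here. A retained-intron transcript of Fmr1, not the listed one, shared a stretch of 640 nt at 96.6% identity with Dffa, a gene at 14.4 FPKM.

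Isoforms add a limit for Fxr1. Its listed transcript, a coding form, is 1986 nt long, whereas the longest coding transcript of the gene in GENCODE M21 has 3014 nt. The listed transcripts of Fmr1 (4409 nt) and Fxr2 (2951 nt) were the longest coding forms of their genes. Whether a deposited value belongs to the whole gene or to the listed transcript is not stated, so the Fxr1 value is less certain in scale than those of Fmr1 and Fxr2.

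**Figure D2:**
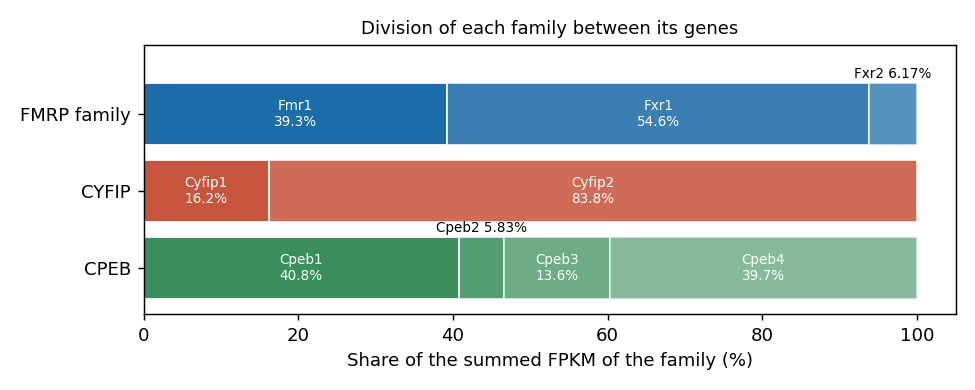
Share of the summed FPKM of each family held by each of its genes, in percent. Fxr1 and Fmr1 hold 54.6% and 39.3% of the FMRP family, Cyfip2 holds 83.8% of the CYFIP pair, and Cpeb1 and Cpeb4 hold 40.8% and 39.7% of the CPEB family.

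Among the direct partners of FMRP, Cyfip2 was the most abundant of the 10 genes. It stood at 136 FPKM, ranking 350 of 20113 protein-coding names, and exceeded Cyfip1, at 26.3 FPKM, by 5.18-fold. It exceeded Fmr1 itself by 8.56-fold. Cyfip2 lies at 46007357 to 46125796 on the minus strand of chromosome 11 and Cyfip1 at 63097441 to 63186070 on the plus strand of chromosome 7. Both genes have long listed transcripts, of 6298 nt for Cyfip2 and 6440 nt for Cyfip1, and their transcripts share no identical run longer than 24 nt. The last 1316 nt of the listed Cyfip1 transcript in GENCODE M21 are also covered, on the opposite strand, by transcripts of the neighbouring gene Nipa2, which was at 15.9 FPKM. The mm9 spans of the 2 entries do not overlap in the table.

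CYFIP proteins take 1 of 5 places in the WAVE regulatory complex, and the other places are filled by NCKAP1, WASF, ABI and BRK1 proteins. In each place with more than 1 gene, 1 gene held most of the summed FPKM, by the smallest share for ABI. BRK1 has 1 gene only. Nckap1, the partner that CYFIP binds along its length, was at 200 FPKM, against 2.88 FPKM for its blood-cell paralog Nckap1l. Wasf1, a brain-enriched member of the actin-nucleation promoting WASF family, was at 191 FPKM, with Wasf3 at 29.0 FPKM and Wasf2 at 4.57 FPKM. For the Abl interactors, Abi1 was at 91.6 FPKM, Abi2 at 42.6 FPKM and Abi3 at 3.30 FPKM. The small subunit gene Brk1, listed under its older name 6720456B07Rik, was at 116 FPKM, and Rac1, the GTPase that activates the complex, was at 141 FPKM.

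Summed over paralogs, the places held 162 FPKM for CYFIP, 203 FPKM for NCKAP1, 224 FPKM for WASF, 137 FPKM for ABI and 116 FPKM for BRK1. The highest sum was 1.93 times the lowest. Cyfip2 held 83.8% of its place, Wasf1 85.0%, Nckap1 98.6% and Abi1 66.6%. All 10 genes of the list, which holds Rac1 but not the CYFIP genes, reached 1 FPKM, against 56.4% of protein-coding names. At 10 FPKM or more were 7, against 30.8%, and the median was 67.1 FPKM. These are RNA levels, and protein amounts were not measured.

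**Figure D3:**
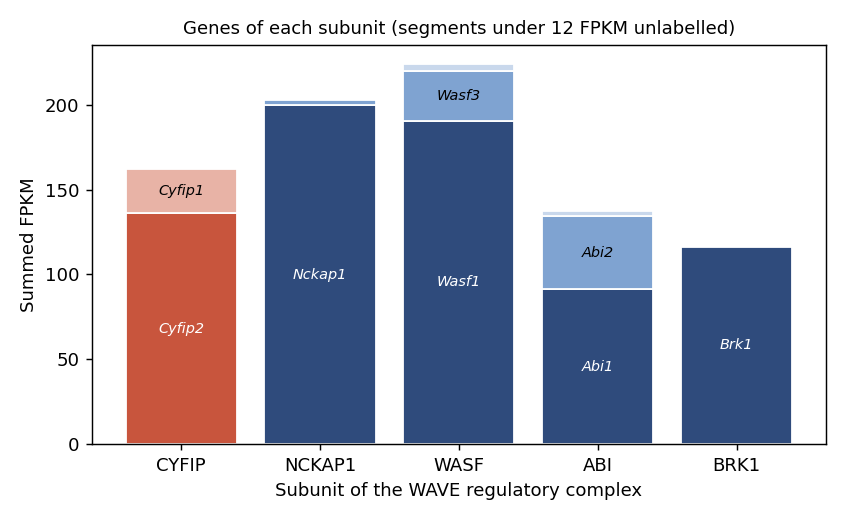
Summed FPKM of the genes for each subunit of the WAVE regulatory complex, stacked by gene, on an axis from 0. The sums lie between 116 FPKM for BRK1 and 224 FPKM for WASF, and Cyfip2 makes up most of the CYFIP bar.

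Caprin1, which forms RNA granules together with G3BP proteins and FMRP and is needed for dendritic mRNA localisation, stood at 81.7 FPKM, ranking 681 of 20113 protein-coding names. It exceeded Fmr1 by 5.14-fold. It lies at 103603098 to 103637806 on the minus strand of chromosome 2, with a listed transcript of 6169 nt, the longest coding form. Its relative Caprin2 was at 0.274 FPKM. The ratio of Caprin1 to Caprin2 was 298, but the size of a ratio with so low a divisor is uncertain. Caprin2 and the partners G3bp1 and Usp10 fall outside the naming rule and were picked after their values were seen.

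The 17 granule partners had a median of 11.2 FPKM. Of them, 14 reached 1 FPKM and 9 reached 10 FPKM, against 56.4% and 30.8% of protein-coding names. The highest were the single-stranded nucleic acid-binding gene Purb at 110 FPKM, summed over 2 entries, G3bp2 at 70.2 FPKM and the dendritic RNA transport gene Stau2 at 47.9 FPKM. The helicase gene Mov10 was listed at 0. G3bp2 exceeded G3bp1, at 11.2 FPKM, by 6.30-fold, and the G3BP-binding deubiquitinase gene Usp10 was at 0.149 FPKM. The ratio of G3bp2 to G3bp1 is uncertain in scale. The listed G3bp2 transcript has 3026 nt against 4232 nt for the longest form, and that of G3bp1 is not in GENCODE M21.

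Of the CPEB genes, Cpeb1 and Cpeb4 lay highest and close together, and Cpeb3 and Cpeb2 lay below them and apart. Cpeb4 was at 33.5 FPKM, Cpeb3, whose protein is linked to long-term memory in mice, at 11.5 FPKM, and Cpeb2 at 4.92 FPKM, higher than 57.6% of protein-coding names. Cpeb1, the founding member and the one best known for control of synaptic mRNAs, was at 34.4 FPKM, higher than 89.5% of names. Cpeb4 exceeded Cpeb3 by 2.92-fold and Cpeb2 by 6.81-fold, and Cpeb3 exceeded Cpeb2 by 2.34-fold. Set against Cpeb1, the ratios were 0.97 for Cpeb4, 0.33 for Cpeb3 and 0.14 for Cpeb2.

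By share of the family's 84.3 FPKM, Cpeb1 held 40.8%, Cpeb4 39.7%, Cpeb3 13.6% and Cpeb2 5.83%. CPEB proteins fall into a CPEB1 branch and a branch of CPEB2, CPEB3 and CPEB4, which recognise RNA through closely related domains. The 3 genes of the second branch together held 59.2%. The split between the branches also showed in the transcripts. The longest identical run between Cpeb1 and any of the others was 14 nt, against 20 nt for Cpeb3 with Cpeb4, 26 nt for Cpeb2 with Cpeb3 and 29 nt for Cpeb2 with Cpeb4. Cpeb2 and Cpeb4 aligned over 815 nt at 81.1% identity.

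Cpeb1 lies at 88491912 to 88599644 on the minus strand of chromosome 7, and its listed transcript of 3111 nt is the longest coding form. Cpeb4 lies at 31772211 to 31831577 on the plus strand of chromosome 11, Cpeb3 at 37095781 to 37281783 on the minus strand of chromosome 19, and Cpeb2 at 43624702 to 43680963 on the plus strand of chromosome 5. The listed transcripts of these 3 genes were not among the identifiers of GENCODE M21, so their lengths and types were not checked. The scale of their values is therefore uncertain, as for Fxr1. The same limit applies to the order, ratios and shares within the CPEB family. Cpeb3 had the longest span of the 10 genes, at 186003 nt, and 12 coding transcripts in GENCODE M21, the most of any of them.

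**Figure D4:**
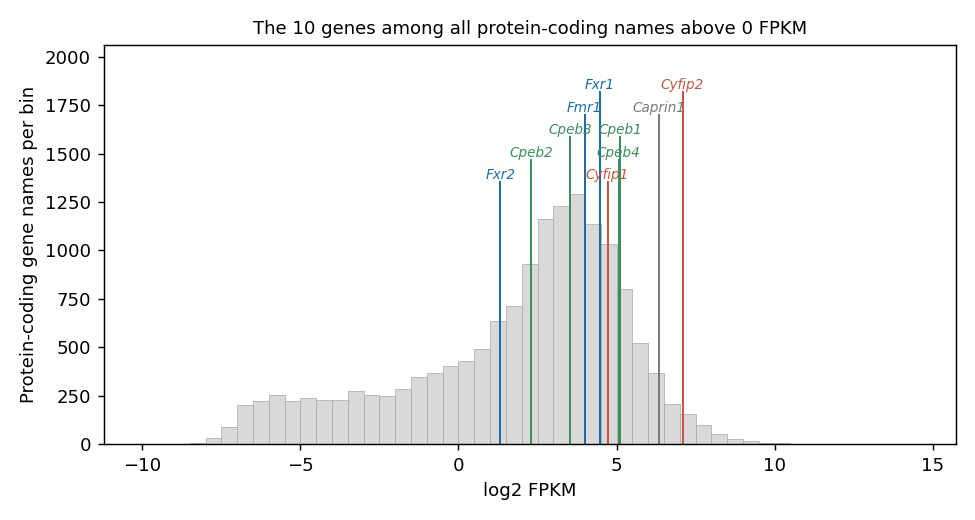
Number of protein-coding gene names per bin of log2 FPKM (grey bars, 15254 names above 0; the 4859 names listed at 0 are not drawn), with a vertical line at the level of each of the 10 genes. Cyfip2 and Caprin1 lie in the upper tail, at percentiles of 98.3 and 96.6 among all protein-coding names. Fxr2 has a percentile of 50.2 on the same scale, which also counts the undrawn names listed at 0.

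A list of 18 genes holds factors that act with CPEB proteins at the 3′ end of mRNAs. Of these, 17 reached 1 FPKM and 12 reached 10 FPKM, against 56.4% and 30.8% of protein-coding names. The median was 14.7 FPKM. On the tail-lengthening side, the scaffold gene Sympk was at 36.3 FPKM, and the cleavage and polyadenylation factor genes Cpsf3, Cpsf1, Cpsf2 and Cpsf4 were at 15.4, 12.4, 9.58 and 8.65 FPKM. The cytoplasmic poly(A) polymerase gene Papd4, also known as Gld2, stood at 1.81 FPKM. Aurka, a kinase that phosphorylates CPEB1 in frog oocytes, was lowest at 0.221 FPKM.

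On the tail-shortening side, the deadenylase gene Parn was at 9.48 FPKM, 5.22 times Papd4. The CCR4-NOT subunit genes Cnot7 and Cnot1 were at 37.6 and 13.9 FPKM, and the genes of the TOB proteins that bring this complex to CPEB targets, Tob1 and Tob2, were at 19.9 and 8.92 FPKM. Among factors that bear on the cap and on silencing, Eif4e was at 22.2 FPKM, the eIF4E transporter gene Eif4enif1 at 19.0 FPKM, the helicase gene Ddx6 at 31.1 FPKM and the neuroguidin gene Ngdn at 11.7 FPKM. The poly(A)-binding protein gene Pabpc1 was at 44.9 FPKM. The highest gene of the list was Neurl1a, at 74.1 FPKM, which encodes a ubiquitin ligase that acts on CPEB3 in mouse hippocampus.

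The lists of known mRNA targets had higher medians than the 10 regulator genes, with wide overlap. All 16 FMRP targets reached 1 FPKM and 15 of them reached 10 FPKM, against 56.4% and 30.8% of protein-coding names. Their median was 50.1 FPKM. The highest were Camk2a, the alpha subunit of the kinase CaMKII, at 1205 FPKM, Dlg4, which encodes the postsynaptic scaffold PSD-95, at 315 FPKM, and the myelin gene Mbp at 261 FPKM. Arc, an immediate early gene, was lowest at 8.28 FPKM. Of 7 CPEB targets, 6 reached 10 FPKM, against 30.8% of protein-coding names, and the median was 87.8 FPKM. Camk2a led this list too, followed by the AMPA receptor gene Gria1 at 249 FPKM and the dendritic microtubule gene Map2, listed as Mtap2, at 212 FPKM. The Map2 value carries a limit, since its listed transcript has 546 nt against 6258 nt for the longest form. Other targets share this limit, among them Dlg4, with 3414 nt against 6326 nt. The gene at the median of the CPEB targets has 4026 nt against 10371 nt. For Camk2a, Gria1 and Mbp the listed transcript was the longest. The mitotic cyclin gene Ccnb1, the classic oocyte target of CPEB1, was at 0.0577 FPKM. The targets were listed as well-studied synaptic or cell-cycle mRNAs, which are not a sample of all bound mRNAs.

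**Figure D5:**
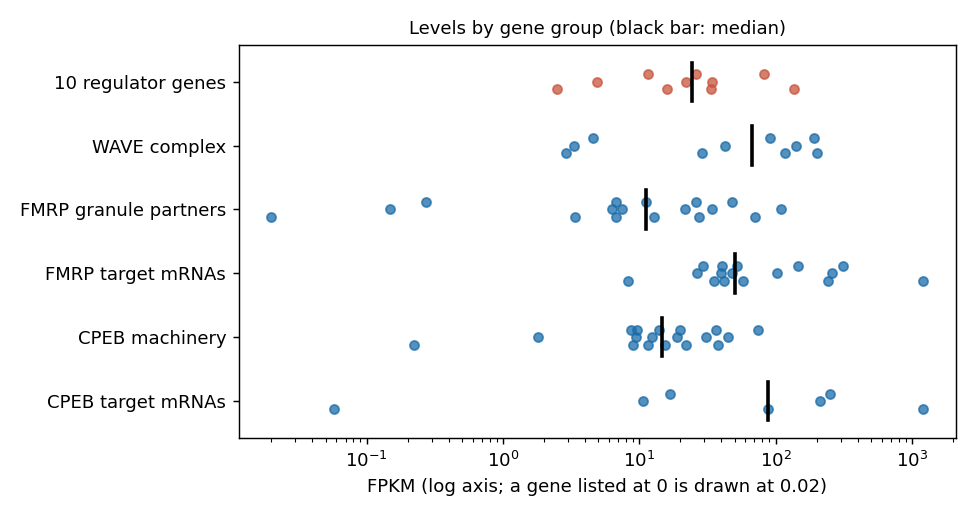
FPKM of each gene by group on a log axis, with the median as a black bar; Mov10, listed at 0, is drawn at the left edge. The medians are 24.2 FPKM for the 10 regulator genes, 67.1 for the WAVE complex, 11.2 for FMRP granule partners, 50.1 for FMRP targets, 14.7 for the CPEB machinery and 87.8 for CPEB targets.

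CPEB genes can themselves carry the element that CPEB1 binds, so the 3′ ends of the 10 mRNAs were read for it. The last 300 nt of the longest annotated 3′ untranslated region of each gene in GENCODE M21 were searched on the transcript strand for TTTTAT and for the variant TTTTAAT, written as DNA. For Fmr1, Fxr1 and Cyfip2 this region belongs to a transcript other than the listed one. For Cpeb2, Cpeb3 and Cpeb4 this could not be compared, as their listed transcripts are not in GENCODE M21. Matches may overlap each other, and TTTTAAT can overlap the polyadenylation signal AATAAA. The first form was found in Fmr1, Cpeb2, Cpeb3 and Cpeb4, 4 of the 10, against 29.2% of 16564 protein-coding genes with such a window. The variant was found in Cyfip1 and Cpeb1, 2 of the 10, against 11.1%. Either form was present in 6 of the 10, against 35.9%, in 6 of the 7 CPEB targets and in 4 of the 16 FMRP targets. The CPEB targets were listed as known targets of proteins that bind this element, so their count describes the list only. Camk2a, which holds TTTTAAT, is counted in both target lists. The share of A and T in the windows of the 10 genes had a median of 69.0%, against 59.7% over all windows. It was above the median of all windows in 7 of them and below it in Fxr2 (49.0%), Cpeb1 (57.0%) and Cyfip1 (58.0%), of which Cpeb1 and Cyfip1 hold TTTTAAT. The part of base composition in the counts was not tested. The match nearest the 3′ end of each of the 6 mRNAs is shown with 10 nt on either side and the motif in capitals, followed by those of the CPEB targets Plat, which encodes tissue plasminogen activator and was at 10.7 FPKM, and Ccnb1:
Fmr1: agatgtaaatTTTTATtaaaaagttg
Cpeb2: atttagtttaTTTTATtgttatcttc
Cpeb3: aataaattaaTTTTATgatgctaatt
Cpeb4: gtaattcattTTTTATtaaagtcatt
Cpeb1: tgacttttctTTTTAATttaacgatta
Cyfip1: caaatgtacaTTTTAATgttcatcacc
Plat: tatatttataTTTTAATctattttagt
Ccnb1: tcatttgctgTTTTAATttatacatct

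In GRCm38 coordinates, which differ from the mm9 positions above, these windows lie at chrX:68717919-68717944 on the plus strand for Fmr1, chr5:43289556-43289581 on the plus strand for Cpeb2, chr19:37021508-37021533 on the minus strand for Cpeb3 and chr11:31935408-31935433 on the plus strand for Cpeb4. Those of Cpeb1 and Cyfip1 lie at chr7:81347258-81347284 on the minus strand and chr7:55932576-55932602 on the plus strand. Those of Plat and Ccnb1 lie at chr8:22782746-22782772 on the plus strand and chr13:100778777-100778803 on the minus strand. The motif began 35 nt before the transcript end in Fmr1 and 17 nt before it in Cyfip1, but 159 to 249 nt before it in the 4 CPEB genes. Cpeb2 held 5 copies of TTTTAT in its window, and Fmr1, Cpeb3 and Cpeb4 held 1 each. The signal AATAAA, present in 69.8% of all windows, was found in all 4 CPEB genes, in Fxr2 and in Caprin1. It was not found in the windows of Fmr1 and Cyfip1, and whether their annotated ends are used in this tissue was not tested. The Pumilio-type motif TGTANATA, present in 9.50% of all windows, was found in none of the 10. A match of letters is not a bound site, and the absence of one applies to this window alone.

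At their 5′ ends, 8 of the 10 genes had RefSeq promoter windows in GRCm38.p6, which reach from 250 nt before to 50 nt after the start. The windows of Caprin1 and Fxr1 held 43 CpG dinucleotides each, and those of Cpeb1, Fxr2, Cyfip2 and Cpeb4 held 33, 32, 29 and 27. The 2 overlapping windows of Fmr1, whose human counterpart has a promoter that is methylated in fragile X syndrome, held 26 and 24. The median over 32851 windows was 7. Cpeb3 had 3 windows, with 42, 4 and 0 CpG dinucleotides. Methylation was not measured in these libraries.

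Neighbouring transcripts could add reads to a gene where strand was not kept. The listed spans of 7 of the 10 genes overlapped 9 other entries with a value, of which 5 were listed at 0. The largest value among them was that of Dnajc19, at 3.66 FPKM, on the opposite strand over 13323 nt of Fxr1, which was 6.05 times higher. The other 3 entries, within Cyfip2 and Cpeb3, were at most 0.509 FPKM. The entry for the self-cleaving ribozyme in an intron of Cpeb3 was listed at 0, in libraries made from poly(A)-selected RNA.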

How the data were processed

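Dentate gyrus RNA was poly(A)-selected, fragmented and reverse transcribed with random primers for Illumina sequencing, per the labels' protocols. Per the submitters' processing notes, TopHat and Cufflinks were used with the builds mm9 and NCBIM37. No version, strand setting or read length is given in the labels. The FPKM values were deposited by the authors as 1 column for the whole series, per the file headers, and whether reads were pooled or libraries averaged is not stated. A value was present in 36469 of 37681 rows. Rows that share a symbol were summed, start positions were made 1-based, and gene types, transcripts and 3′ untranslated regions came from GENCODE M21, matched on Ensembl identifiers. A percentile is the share of protein-coding names with a lower value. A ratio is of deposited values with no pseudocount. An exact 0 can be a failed estimate and is written as listed at 0. The depth is unknown and no p-value is given; tests over libraries were planned and not run, as they need a value for each library.

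The members and gene lists were chosen with earlier results of these data known. The naming rule took all 10 genes, every gene of the WAVE and CPEB machinery lists, and the 3 highest and the lowest gene of each other list. Plat, Caprin2, G3bp1, Usp10 and the neighbouring or similar genes Nipa2, Dffa and Dnajc19 lie outside it and were named after their values were seen. All 68 list entries were matched, Brk1 by identifier and Map1b and Map2 by older symbols. Similar transcripts were found with blastn 2.17.0 (at least 300 nt at 80% identity or more). Percentile and motif steps were tested on simulated data. Alternatives changed the handling of shared symbols, the background names, the pseudocount and the minimum FPKM. Protein sequences were not used here. Scripts ran in Python 3.11.15 (numpy 2.4.6, pandas 2.3.3).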

Additional observations from a re-analysis of the deposited data

How the results depend on the processing

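With no replicate error, a ratio, count or median was taken as moved when it changed by more than 1.5 times and a percentile when it changed by more than 5 points. The levels of the 10 genes were the same when the highest entry replaced the sum, as each has 1 entry. All 12 ratios between the 10 genes stayed within 1.5 times with a pseudocount of 1 or 0.1 FPKM. Ratios that involve other genes, such as that of Caprin1 to Caprin2, were not checked with a pseudocount. At a minimum of 5 FPKM 8 genes counted, against 42.2% of protein-coding names, and at 20 FPKM 6, against 18.4%. Percentiles depend on the background. Among all names with a value, Fxr1 stood at 88.2, Fmr1 at 84.6, Cpeb3 at 80.6, Cpeb2 at 71.0 and Fxr2 at 65.7. Among protein-coding names at 1 FPKM or more, Cpeb1 stood at 81.5, Cpeb4 at 80.9, Cyfip1 at 74.5, Fxr1 at 69.9, Fmr1 at 60.5, Cpeb3 at 49.9, Cpeb2 at 24.7 and Fxr2 at 11.6; both shifts follow from adding or leaving out low names. With members at 1 FPKM or more, the median of the CPEB targets was 150 FPKM, since Ccnb1 left a list of 7, and that of the granule partners 17.2 FPKM, since Caprin2, Usp10 and Mov10 left. No paired analysis was possible because the series has 1 group and no values per library were analysed; for the same reason no library could be left out in turn.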

Other observations

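Cyfip1 lies in a block of genes that is deleted or duplicated as a unit in a recurrent human copy-number variant. The block was looked at after values were seen. In mm9 coordinates on chromosome 7, Tubgcp5, a gamma-tubulin complex gene at 63049518 to 63086817, was at 6.42 FPKM. Nipa2 and Nipa1, magnesium transporter genes at 63186657 to 63217846 and 63232937 to 63275324, were at 15.9 and 15.2 FPKM. Cyfip1, at 26.3 FPKM, was the highest of the 4.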
